A study of Drosophila melanogaster with 15 samples.

Results

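The 200 most counted noncoding RNAs with a CR number were followed through sorted cells of the Drosophila melanogaster testis. FlyBase gives a CR number to transcribed loci that it does not class as ordinary protein-coding genes, chiefly long noncoding RNAs, antisense RNAs and pseudogenes. The count table held 17408 genes, of which 2607 rows had a symbol made of CR and digits alone, and 2065 of these had at least 1 count. Members are the 200 of these rows with the highest raw count summed over all 15 libraries, so that total count alone chose them. A locus that is abundant in any of the larger libraries therefore had a better chance of entry. At the edge of the list, CR44295 and CR44940 held 196 counts and CR10991, CR43637 and CR44786 held 195, and the first rows outside were CR43279 and CR43464 with 194 and CR45877 with 193.

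The libraries measure polyadenylated RNA of cells sorted by GFP under tj-Gal4, a driver used for the somatic cyst lineage of the testis, with 3 libraries in each of 5 groups. All males were w/Y and carried tj-Gal4 with UAS-GFPnls. WT carried a second UAS-GFPnls, Upd carried UAS-Upd and UAS-GFP, and Ci carried UAS-Ci5Ncm5 with UAS-Ci5m30. Chinmo carried UAS-5'UTR-chinmo-3'UTR with tub-gal80TS, which encodes a temperature-sensitive inhibitor of Gal4. The group labelled chinmo RNAi carried UAS-chinmoRNAi (HMS00036) with UAS-dcr2. Flies were 10 days past eclosion, except those labelled chinmo RNAi, which were 2 or 3 days old, so that age, the dcr2 transgene and the RNAi label cannot be told apart. Every sample pooled 50 to 100 flies. According to the series' design text the groups stand for cyst stem cells with raised JAK/STAT signalling, raised Hedgehog signalling, and more or less of the transcription factor Chinmo, each set against the controls.

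Long noncoding RNAs are transcribed, spliced and often polyadenylated like messenger RNAs, and most have no assigned function. Some are the primary transcripts from which microRNAs are cut, and others lie across a coding gene in antisense orientation or inside its introns. Hairpin RNAs fold on themselves and are cut by Dcr-2 into small interfering RNAs, a pathway with known roles in the fly testis. The testis of flies is a rich source of noncoding transcripts, many of them made in spermatocytes, the germ cells that the cyst cells enclose.

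Libraries held 1143050 to 2943120 counts in genes, and ribosomal RNA rows took 12.8% to 32.3% of them. A pair of libraries stood apart before any comparison. Chinmo 3 had counts in 4983 genes and in 54 of the members, and the second library labelled chinmo RNAi had counts in 8109 genes and 114 members, against 9355 to 13229 genes and 139 to 199 members in the others. The chinmo transcript itself stood at 70.8, 75.2 and 69.8 CPM in WT (read counts scaled to library size by TMM), at 100, 392 and 761 in Chinmo, and at 147, 143 and 61.4 under the chinmo RNAi label, so that it was not called lower there. In Upd chinmo stood at 730, 545 and 545 CPM and was called higher than WT, with a mean of 607 against 418 in Chinmo. In Ci it was at 153, 208 and 106, above every WT library but not called. The transcript of tj, the gene whose enhancer drives the sort, was at 16.9, 1.59 and 0.475 CPM in WT and at 219, 246 and 200 in Upd. In bulk samples fewer cells of a type and less RNA per cell cannot be told apart.

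Germ cell markers moved with the groups. The summed level of 20 spermatocyte and spermatid markers was 6049 to 10707 CPM in WT, 264 to 417 in Upd, 3485 to 4385 in Chinmo, 3618 to 4698 under the chinmo RNAi label and 5188 to 9276 in Ci. In Upd 13 of the 20 were lower than in WT, 4 were lower under the chinmo RNAi label and 1 was in Chinmo, with 1 of the 20 without a count in Upd and 2 under the chinmo RNAi label. Of 12 early germline markers 11 were higher in Upd, where their sum was 1726 to 1909 CPM against 77.2 to 132 in WT, while 3 were lower under the chinmo RNAi label and 1 in Chinmo. Of 10 cyst lineage markers 5 rose and 4 fell in Upd, their sum going from 541 to 700 CPM in WT to 2429 to 3155. The 1 that rose in Chinmo was chinmo itself, the gene that the UAS transgene of that group carries. Of 4 hub markers 2 rose and 2 fell in Upd, of 4 tested muscle markers 1 and 2, of 4 neuron markers 2 and 1, and of 2 tested hemocyte markers 1 fell. The hub list holds upd1, so the UAS-Upd transgene may have fed the hub values in Upd. In the comparisons of Chinmo and chinmo RNAi with WT none of these last 4 lists had a called gene, and in Ci none of the lists did. Their sums over all listed genes moved all the same. Under the chinmo RNAi label hub stood at 472 to 523 CPM against 101 to 180 in WT, and hemocyte at 629 to 716 against 216 to 410. Neuron stood there at 267 to 419 against 57.0 to 153, while muscle overlapped WT. In Chinmo hemocyte was above WT at 499 to 947 CPM, with 1 of its 4 genes without a count. The 2 hemocyte genes tested had a median log2 change of -0.28 in Chinmo and 0.25 under the chinmo RNAi label. Muscle was below WT in Chinmo, at 127 to 150 against 200 to 247, while hub and neuron overlapped WT. The part of these shifts in the members' changes was not tested.

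By annotation 158 members are long noncoding RNAs, 19 are antisense RNAs, 17 are pseudogenes, 2 are hairpin RNAs and 4 are now classed as protein-coding. Their exonic length ran from 214 to 21024 bases with a median of 889, and 100 had a single exon. On either strand 38 overlapped an exon of a coding gene, 26 of them on the opposite strand, and 62 lay within an intron. The X chromosome held 27 members, or 13.5%, against 13.15% of all CR rows and 15.7% of coding genes, and the Y chromosome held none of them against 62 CR rows in all. Members of long and short length are compared with each other below only per kilobase of exon.

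The list was uneven. Its 200 loci held 176225 of the 241031 counts in CR rows, or 73.1%, yet CR42862 alone held 23.7% of the members' counts and the first 12 held 52.1%. Members took 0.689% ± 0.139 of the gene counts in WT (SD, n = 3), 0.306% ± 0.0555 in Chinmo, 0.487% ± 0.0265 in Upd, 0.778% ± 0.148 in Ci and 0.509% ± 0.110 in the libraries labelled chinmo RNAi. Without CR42862 the share in Upd was 0.284% against 0.590% in WT, while CR42862 itself took 0.203% in Upd against 0.0990% in WT.

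**Figure D1:**
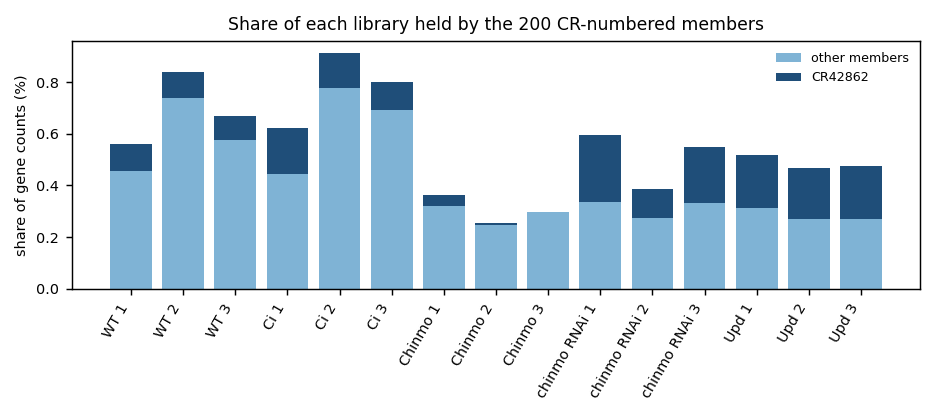
Share of gene counts (%) held by the members in each of the 15 libraries, split into CR42862 (dark) and all other members (light). In Upd the dark part is larger than in WT and the light part is smaller; in Chinmo 3 the dark part is nearly absent.

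CR42862 is a long noncoding RNA of 3 exons on chromosome 3L (224106 to 230964, plus strand, dm6), of unassigned function, whose exons overlap those of the coding gene CG33229 on the same strand. Its level was 1048, 917 and 873 CPM in WT, 1731, 1539 and 1571 in Upd, 1628, 956 and 957 in Ci, and 2739, 1325 and 2436 under the chinmo RNAi label. In Chinmo it was 591, 71.1 and 4.99, with the lowest value in Chinmo 3. It lay above WT in every Upd library and below it in every Chinmo library, but no comparison with WT passed the threshold, the fitted log2 changes being 0.77 ± 0.81 in Upd (SE, adjusted p = 0.50) and -2.08 ± 0.84 in Chinmo (adjusted p = 0.15), with edgeR's quasi-likelihood test and Benjamini-Hochberg adjustment over all genes, as for every adjusted p given here. The overlapping CG33229 was at 48.7 ± 9.39 CPM in WT and 93.6 ± 11.2 in Upd. A read in the shared exons could not be assigned to either gene. Per kilobase of exon CR42862 ranked 4th among the members by mean level, behind CR43461, CR44493 and CR9284.

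**Figure D2:**
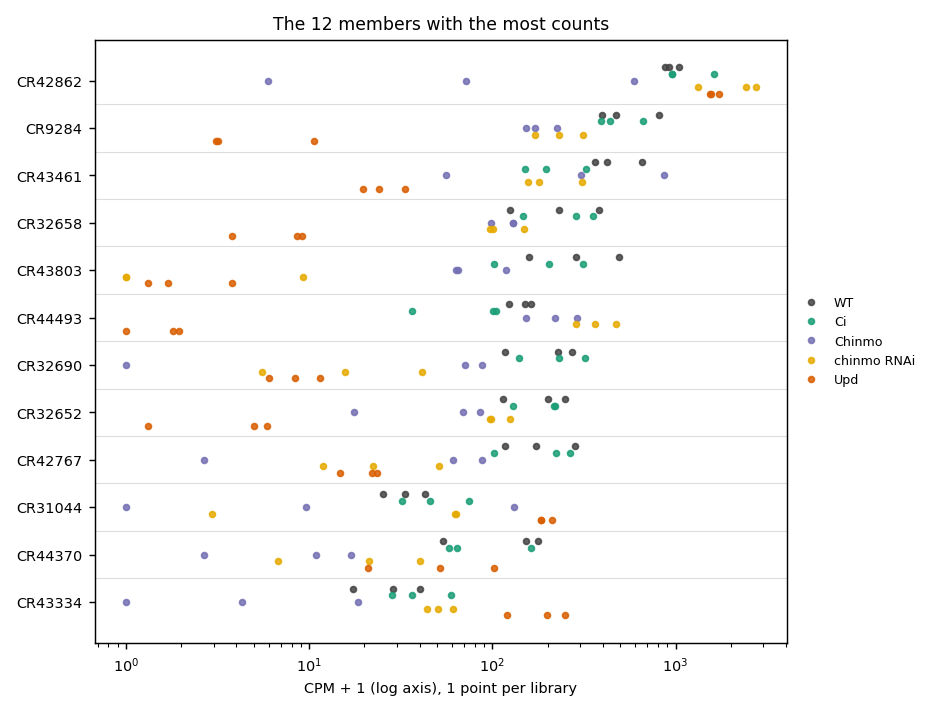
Level in CPM + 1 (log axis) of the 12 members with the most counts, 1 point per library, coloured by group. From CR9284 to CR42767 the Upd points lie to the left of the WT and Ci points, while for CR31044 and CR43334 they lie to the right.

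Upd, the ligand of the JAK/STAT pathway, gave the widest shift. Against WT, 97 of the 199 tested members were lower and 18 were higher, where 25.3% of all genes tested were lower and 9.22% were higher. The total that chose the members includes these libraries, so a member could enter through the group where it is high. Over 50% of the summed group means lay in Upd for 27 members, under the chinmo RNAi label for 9 and in Chinmo for 8. For CR45523, CR46123, CR46216, CR46003 and CR46004 the share in Upd was 90.1% to 97.3%. A call of higher in such a group, here or below, was partly set by the choice of members. So was a call of lower, since the 26 members called lower with no Upd count entered through the other groups. The median change given next shares this limit. The median fitted log2 change of the members was -2.71 (-2.66 with members lacking counts in a group set at their limit), against -0.07 over all genes (-0.07). Of the other 304 CR rows that could be tested, 114 were lower and 19 higher. The 3 Upd libraries lay wholly below the 3 WT libraries for 112 members, where 35.1% of all genes did so, and wholly above for 39, against 32.3% of all genes. Leaving out single libraries changed the number higher by more than 1.5 times: it was 10 without Upd 1, 10 without WT 2 and 9 without WT 3. Over all genes, 927 were higher in the main fit, and 544, 442 and 515 in those fits. In every fit that left out 1 library of either group, 71 of the 97 and 7 of the 18 stayed past the threshold.

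**Figure D3:**
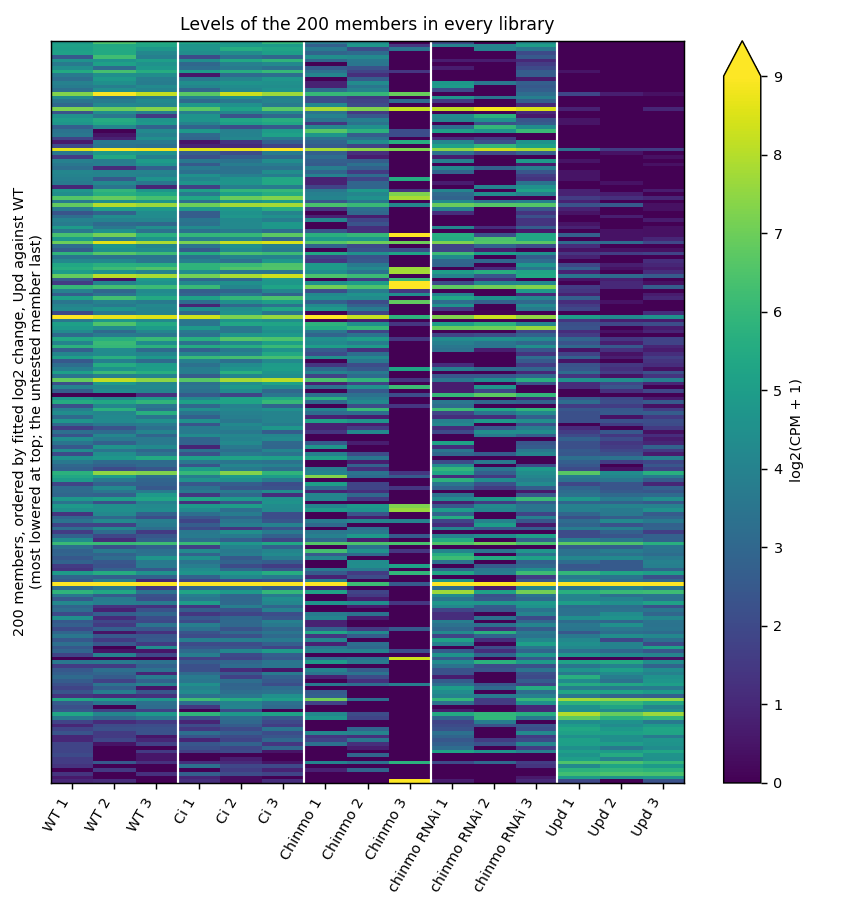
Level of the 200 members as log2(CPM + 1) in each library, rows ordered by the fitted log2 change of Upd against WT with the untested CR46041 last. The upper rows are dark in the 3 Upd libraries and light in WT and Ci, the lowest rows are light in Upd, and Chinmo 3 is dark in most rows with a few bright ones.

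The second to ninth most counted members all fell in Upd. CR9284 (chromosome 2R, 21803402 to 21804338, plus strand), a spliced RNA of 889 bases that overlaps no coding gene, was at 398, 815 and 474 CPM in WT and at 9.59, 2.10 and 2.18 in Upd. It fell by 6.94 ± 0.61 on the log2 scale (adjusted p = 1.9e-08), and without Upd 1, the highest of the Upd libraries, its log2 change was -7.99. In Ci it stood at 390, 439 and 667 CPM, overlapping WT, while its levels of 223, 171 and 151 in Chinmo and of 171, 311 and 231 under the chinmo RNAi label lay below WT in both without passing the threshold (adjusted p = 0.059 and 0.11).

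CR43461, on the X chromosome within an intron of CG3168, had the highest level per kilobase of all members. It was at 656, 419 and 364 CPM in WT and at 32.4, 18.6 and 23.1 in Upd, with a log2 change of -4.28 ± 0.67 (adjusted p = 4.0e-05). The gene around it went the other way: CG3168 was at 32.0 ± 1.26 CPM in WT and rose in Upd to 183 ± 62.1 (log2 change 2.51, adjusted p = 0.022). In Chinmo CR43461 ranged from 54.8 in Chinmo 3 to 864 CPM in Chinmo 1.

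CR32658 and CR32657 lie 3568 bases apart on the same strand of the X chromosome, within an intron of Ten-a, which encodes a teneurin, a transmembrane adhesion protein. CR32658 was at 124, 379 and 231 CPM in WT and 7.59, 8.07 and 2.81 in Upd (-5.31 ± 0.60, adjusted p = 5.6e-07). CR32657 was at 21.0, 48.9 and 40.4 in WT and at 0.799, 0.701 and 0 in Upd (-6.10 ± 1.21, adjusted p = 0.00045, and -5.51 without Upd 3). Both neighbours thus fell with no overlap between the groups, while Ten-a was at 2.93 ± 2.19 CPM in WT and at 46.8 ± 8.66 in Upd (log2 change 3.99, adjusted p = 0.019).

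CR44493 and CR44492 form another pair, single-exon RNAs 322 bases apart on the minus strand of chromosome 2L within an intron of dpr2, a gene for an immunoglobulin-domain cell surface protein. CR44493 (10943272 to 10943622) was at 150, 123 and 161 CPM in WT and at 0.799, 0 and 0.935 in Upd, with a log2 change of -7.82 ± 0.72 (adjusted p = 3.2e-08). CR44492 went from 27.7, 19.1 and 29.9 to 3.99, 0 and 0.624 (-4.05 ± 1.11, adjusted p = 0.0064, and -6.06 without Upd 1). Both had their highest group mean in the libraries labelled chinmo RNAi, with 283, 473 and 361 CPM for CR44493 and 118, 130 and 191 for CR44492, above every WT library, where the test did not pass (adjusted p = 0.096 and 0.12).

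CR43803, a spliced RNA within an intron of beat-Ib on chromosome 2L, was low in 2 groups. It was at 158, 488 and 286 CPM in WT, at 2.80, 0.701 and 0.312 in Upd (-7.93 ± 1.06, adjusted p = 6.0e-06, and -9.12 without Upd 1) and at 0, 0 and 8.25 under the chinmo RNAi label (-6.70 ± 1.0, adjusted p = 0.0026). The third library of the latter group held all of that group's counts, and without it the log2 change was -12.40. In Ci the levels of 102, 311 and 203 CPM overlapped WT, and in Chinmo 64.2, 62.6 and 118 lay below it (adjusted p = 0.14).

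The X-linked CR32690, CR32652 and CR42767 completed the abundant members that fell. CR32690 was at 115.5, 271 and 228 CPM in WT and 10.4, 7.37 and 4.99 in Upd (-4.75 ± 0.95, adjusted p = 0.00049). CR32652 was at 113, 248 and 200 in WT and 3.99, 4.91 and 0.312 in Upd (-5.92 ± 0.78, adjusted p = 4.5e-06). CR42767 was at 117, 283 and 173 in WT and 22.4, 21.0 and 13.7 in Upd (-3.32 ± 0.80, adjusted p = 0.0024). In all 3 the groups were far apart, and the Ci libraries lay near or within the range of WT.

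For 27 members no read was counted in any Upd library, and 26 of them were called lower. A limit of 3 counts over the 3 Upd libraries corresponds to 0.350 CPM, and covers counting error only. Against it CR43263, at 28.7, 86.3 and 44.2 CPM in WT, was at least 151-fold lower in Upd (adjusted p = 0.00028). CR44279, a single-exon RNA of chromosome 2R with the evenly high WT levels of 34.9, 42.2 and 38.5, was at least 110-fold lower (adjusted p = 4.0e-05). CR43627 was at least 97.7-fold lower, CR43160 at least 90.3-fold and CR44601 at least 75.3-fold. CR44081 was at least 88.7-fold lower, but its WT mean of 31.1 CPM came from 74.8 in WT 2 against 4.62 and 13.8, and without WT 2 it was at least 26.2-fold lower. Leaving out a library of Upd instead made each of these folds smaller by 1.41 to 1.60 times, the most without Upd 3, because the limit then rests on fewer reads. All 6 were in reads of the Ci libraries, with means between 6.28 and 39.7 CPM. CR43160 and CR44601 were also called lower under the chinmo RNAi label (adjusted p = 0.030 and 0.017). Both of those calls were lost without its first or second library, WT 2 or WT 3.

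Across the 97, the WT means ran from 3.97 to 562 CPM with a median of 19.2, and the Upd means from 0 to 24.7 with a median of 0.399. Their Ci means had a median of 20.3. Exonic length had a median of 751 bases in the 97 lower members and 1328 in the 18 higher ones. Of the higher members 14 were longer than 1 kilobase, of the lower ones 23 and of the 84 tested members in neither set 49. This is a description of the called members, with no test. Of the lower members 29 lay on chromosome 2L, 18 on 3L, 17 each on 2R and 3R, 14 on X and 2 on 4.

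**Figure D4:**
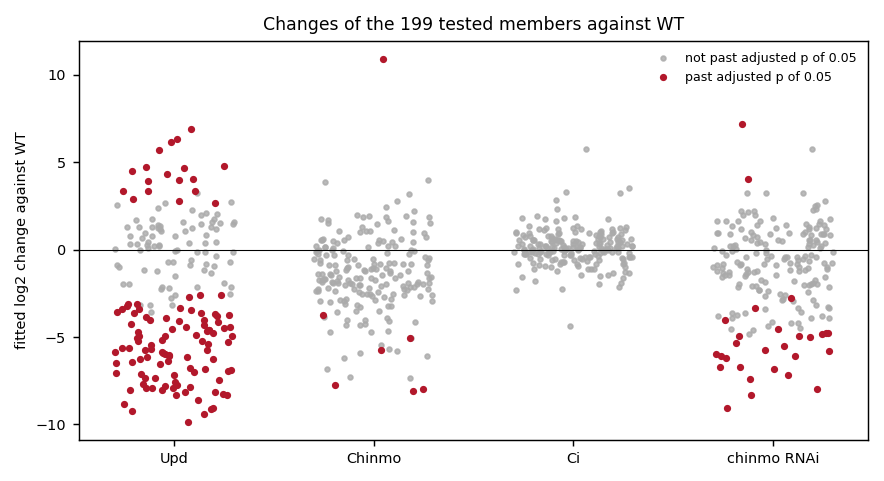
Fitted log2 change of each of the 199 tested members against WT in 4 comparisons, 1 point per member, red where the adjusted p was below 0.05. Fitted values of members with no count in a group depend on the model's prior count; the Upd column holds 97 red points below 0 and 18 above, the Ci column none.

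Among the 18 members that rose, CR46216 of chromosome 3L (19243755 to 19251653, plus strand) stood at 75.1, 86.6 and 82.6 CPM in Upd against 1.54, 0 and 1.42 in WT (6.33 ± 1.15, adjusted p = 0.0003, and 5.73 without WT 2). It was at 5.79, 3.27 and 2.56 CPM in Ci and had no count in Chinmo or in the libraries labelled chinmo RNAi. CR40469, a single exon of 214 bases near the end of the X chromosome (122493 to 122706), was at 2.05, 4.77 and 1.42 CPM in WT and at 89.5, 83.8 and 59.2 in Upd (4.77 ± 0.96, adjusted p = 0.00053, and 5.43 without WT 2). It was also high in Chinmo, at 15.8, 9.88 and 53.2 CPM, all above WT, where the test did not pass (adjusted p = 0.058).

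CR45523 had 1 count in all of WT and stood at 28.4, 22.8 and 26.5 CPM in Upd (adjusted p = 0.0013). Its neighbour CR43132, 525 bases upstream on the same strand of the X chromosome, was at 3.59, 0 and 8.07 CPM in WT and 22.8, 37.5 and 15.9 in Upd, with no overlap but no call (adjusted p = 0.10). CR46123, within an intron of Myo81F, was at 32.4, 14.7 and 22.5 CPM in Upd against 2.05, 0 and 0.475 in WT (adjusted p = 0.015). That call was lost without Upd 1, WT 2 or WT 3 (adjusted p up to 0.066).

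Of the 18 members that rose 4 lay within an intron of a coding gene (22.2%), as did 22 of the 97 that fell (22.7%). Of the 84 tested members in neither set 35 did (41.7%). The hosts of CR44842 and CR44331 were higher in Upd and that of CR32027 was lower, and values of Myo81F, the host of CR46123, are not given. CG3168 and Ten-a rose around members that fell, as described above. CR44842 lies within an intron of Ptp61F, a phosphatase that dampens JAK/STAT signalling. It had 3 counts in WT and stood at 17.6, 37.5 and 29.0 CPM in Upd (adjusted p = 0.0043), while Ptp61F was at 93.9 ± 10.6 CPM in WT and 347 ± 55.3 in Upd (adjusted p = 0.0023). CR44331 lies within an intron of puc, a phosphatase of the JNK pathway, and was at 2.57, 0.398 and 2.37 CPM in WT and 32.8, 32.3 and 23.7 in Upd (4.03 ± 1.16, adjusted p = 0.0089, lost without WT 2 at 0.052). The level of puc was 32.8 ± 7.09 CPM in WT and 176 ± 36.2 in Upd (adjusted p = 0.0060). CR32027, within an intron of the citrate transporter gene Indy, went against its host: it rose from 1.03, 1.99 and 0.475 CPM to 22.4, 21.4 and 12.2 (3.92 ± 1.23, adjusted p = 0.016), while Indy fell from 235 ± 38.8 to 93.3 ± 20.7 (adjusted p = 0.0085). The call of CR32027 was lost without Upd 1, Upd 2, WT 1 or WT 3, and without WT 2 its log2 change was 4.54.

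Of the loci that lie opposite coding exons, CR45189, CR44029 and CR44977 rose beside their coding partners. CR45189 lies opposite exons of zfh1, which encodes a repressor required in cyst stem cells, and was at 21.2, 11.6 and 20.0 CPM in Upd against 2.57, 0 and 0 in WT (4.33 ± 1.45, adjusted p = 0.023). The zfh1 transcript went from 15.9 ± 6.78 to 456 ± 85.6 CPM (adjusted p = 0.00023). CR44029, opposite the synaptic release gene unc-13 on chromosome 4, went from 1.03, 3.18 and 3.32 to 30.4, 19.3 and 29.3 CPM (3.35 ± 1.01, adjusted p = 0.013), and unc-13 from 60.5 ± 6.99 to 444 ± 40.9 (adjusted p = 0.0009). CR44977, opposite the translational repressor gene brat, went from 2.57, 0 and 1.90 to 33.2, 29.5 and 39.0 CPM (4.49 ± 1.13, adjusted p = 0.0038), and brat from 104 ± 16.8 to 303 ± 59.0 (adjusted p = 0.0072). The strand setting of the counting is not given in the sources used here, so reads of a gene and of its antisense partner cannot be told apart. Calls were lost for CR45189 without Upd 1, Upd 3, WT 2 or WT 3 and for CR44029 without Upd 1, Upd 3 or WT 1. Without WT 1 the log2 change was 8.27 for CR45189 and 5.10 for CR44977, and without WT 2 it was 3.73 and 3.89.

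Of 20 pairs of a member and a coding gene on the opposite strand in which both were tested, these 3 were higher together in Upd and none was lower together. In 1 pair the 2 went apart: CR44027 fell (-3.39, adjusted p = 0.021, lost without Upd 1, Upd 2, Upd 3 or WT 3) and its partner dati rose (4.41, adjusted p = 0.019). In 3 pairs the member alone fell, in 3 the coding gene alone was called, and in 10 neither was. CR44370, the most counted antisense member, lies across Fs, the follistatin gene, and was at 52.9, 175 and 152 CPM in WT and 101, 20.0 and 50.5 in Upd (adjusted p = 0.27), while Fs was at 31.1 ± 18.7 and 133 ± 67.8 (adjusted p = 0.034).

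The remaining members higher in Upd were CR33963 and CR45018, which overlap exons of Tis11 and IP3K2 on the same strand, the pseudogene CR43670, CR44953, and loci with a microRNA gene or beside them, described next. CR33963 was at 5.13, 10.3 and 9.02 CPM in WT and 52.7, 61.7 and 42.4 in Upd (2.67 ± 0.96, adjusted p = 0.034), and CR43670 at 4.11, 1.99 and 3.80 against 34.4, 33.3 and 36.8 (3.39 ± 1.17, adjusted p = 0.028). CR44953 was at 3.32 ± 0.658 CPM in WT and 34.9 ± 7.19 in Upd (adjusted p = 0.031). None of these 3 calls survived the loss of any single library of Upd or WT. CR45018 was at 1.03, 2.79 and 0.950 CPM in WT and 34.0, 21.4 and 24.9 in Upd (4.01 ± 1.17, adjusted p = 0.0099), a call lost without WT 3 (0.053) and 4.68 without WT 2.

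In 13 members the annotation places a microRNA gene inside the transcribed span on the same strand, a set picked from annotation after the data had been seen. MicroRNAs are cut from such primary transcripts in the nucleus, so these values measure polyadenylated RNA of the locus and not mature microRNA. The span includes introns, and whether the reads came from unprocessed transcript was not tested. Of the 13, 3 rose in Upd and none fell, with a median log2 change of 1.33, against -3.21 for the other 186 tested members. Over all genes tested 9.22% were higher and 25.3% lower. In no other comparison with WT was any of the 13 called.

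CR43334 holds mir-ban, the gene of bantam, a microRNA that promotes growth and blocks cell death in flies. It spans 15466 bases of chromosome 3L (628435 to 643900, plus strand) and was at 39.0, 16.3 and 27.5 CPM in WT and at 248, 120 and 197 in Upd (2.77 ± 0.76, adjusted p = 0.0064). It was called in every fit that left out 1 library of Upd or WT. Its levels were 58.3, 27.4 and 35.4 CPM in Ci, 43.0, 59.8 and 49.5 under the chinmo RNAi label and 17.5, 3.29 and 0 in Chinmo, with none of these past the threshold.

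CR43857, with mir-275, was at 11.3, 7.16 and 10.9 CPM in WT and 105, 51.2 and 59.9 in Upd (2.87 ± 1.05, adjusted p = 0.036), but the call was lost on leaving out any library of Upd or WT. CR31044, with mir-279 and mir-996, of which mir-279 is known to restrain JAK/STAT signalling in the fly ovary, was at 41.6, 32.2 and 24.2 CPM in WT and 212, 183 and 183 in Upd. Its groups did not overlap, yet the test did not pass (2.56 ± 1.06, adjusted p = 0.065). In Chinmo it ranged from 0 in Chinmo 3 to 131 in Chinmo 1.

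The mir-276 locus of chromosome 3L gave 3 members. CR46004 holds mir-276b and went from 3.08, 0 and 0.475 CPM in WT to 24.0, 44.9 and 23.4 in Upd (4.68 ± 1.47, adjusted p = 0.019, lost without Upd 2, WT 2 or WT 3, 6.75 without WT 1 and 4.08 without WT 2). CR46003, on the opposite strand and overlapping it, went from 0, 1.99 and 0 to 53.9, 60.3 and 53.3 (6.18 ± 1.41, adjusted p = 0.0018, and 9.90 without WT 2). CR46006, 2900 bases further along with mir-276a, was at 4.62, 2.39 and 2.37 in WT and 22.0, 19.3 and 22.5 in Upd, with no overlap and no call (adjusted p = 0.098). In Ci, CR46004 had no count at all and CR46006 had counts in Ci 2 alone.

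The other microRNA loci moved less. CR43459, with mir-277 and mir-34, was highest in the libraries labelled chinmo RNAi at 204, 35.3 and 135 CPM, against 56.5, 40.6 and 9.97 in WT and 50.7, 65.2 and 71.7 in Upd. CR43650, with mir-8, was at 26.2, 32.2 and 37.0 in WT and 26.0, 12.6 and 20.6 in Upd. CR43651, with mir-14, a suppressor of cell death, was above WT in every Upd library, at 49.9, 13.0 and 23.1 against 7.70, 5.17 and 12.3 CPM (adjusted p = 0.20). CR43836, with mir-31b, lay below WT in Upd, at 2.00, 4.56 and 0.312 against 8.73, 7.96 and 15.7 (adjusted p = 0.15). None of these comparisons with WT passed the threshold, nor did those of CR43314, CR43626, CR46194 and CR45910, which hold mir-bft, mir-282, the pair mir-281-1 and mir-281-2, and mir-1000.

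**Figure D5:**
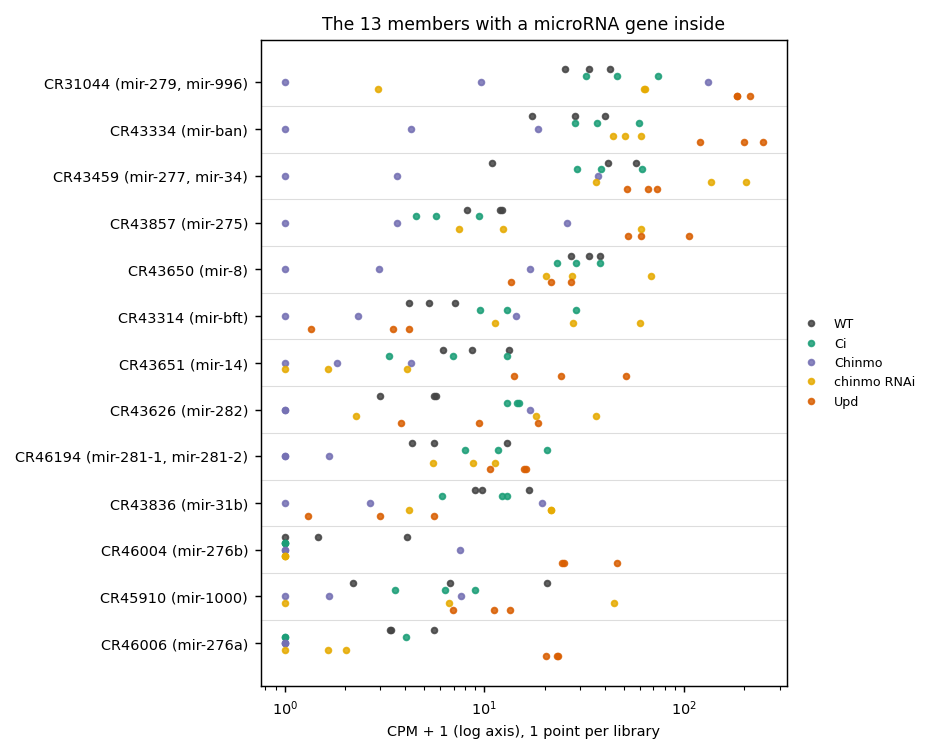
Level in CPM + 1 (log axis) of the 13 members with a microRNA gene inside, 1 point per library, coloured by group. The Upd points of CR31044, CR43334, CR43857, CR46004, CR46006 and CR43651 lie to the right of all WT points; for CR43836 they lie to the left.

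Of the other annotation classes, all 4 members now classed as protein-coding fell in Upd, where 25.3% of all genes tested were lower. CR42848 (CG46304) was at 82.1, 135 and 50.8 CPM in WT and 5.59, 0.351 and 0.312 in Upd (-5.44 ± 1.13, adjusted p = 0.00071, and -7.84 without Upd 1), and CR43845 (CG43845) at 40.0, 50.5 and 47.5 against 2.80, 0.701 and 0.935 (-4.93 ± 1.24, adjusted p = 0.0033, and -5.70 without Upd 1). CR43405 (CG43405) had 2 counts in all of Upd against 19.2 ± 6.52 CPM in WT (adjusted p = 0.0011). CR45273 (CG45273) had none and was at least 33.5-fold lower (adjusted p = 0.0042), with WT levels of 22.6, 10.7 and 1.90, or at least 18.0-fold without WT 1. CR42848 stood at 631 CPM in Chinmo 3 against 50.9 and 63.2 in the other Chinmo libraries.

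Among 17 pseudogenes 10 fell and 1 rose in Upd, and among 19 antisense RNAs 5 fell and 2 rose. Over all genes tested 25.3% were lower and 9.22% higher, and the antisense counts lie near those shares. Pseudogenes can share reads with the intact gene they derive from, so their counts are uncertain. CR33318 and CR33319, pseudogenes 4289 bases apart on chromosome 2L, both fell in Upd, from 32.8, 65.6 and 49.4 to 7.99, 2.10 and 3.74 CPM (adjusted p = 0.014, lost without Upd 2 or Upd 3) and from 33.4, 88.7 and 43.7 to 3.59, 2.81 and 3.43 (adjusted p = 0.0026). In the libraries labelled chinmo RNAi they differed: CR33318 had 2 counts in all, while CR33319 was at 32.7, 53.3 and 17.0 CPM, overlapping WT.

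The hairpin RNAs CR18854 and CR32207 were not among the members that fell. CR18854 was at 3.59, 9.95 and 15.2 CPM in WT and at 45.1, 40.3 and 32.4 in Upd, above every other library (2.03 ± 0.89, adjusted p = 0.080), with part of its span opposite IP3K1. CR32207 was at 4.62, 8.75 and 9.50 in WT, 23.6, 32.6 and 20.0 in Upd (adjusted p = 0.20) and 3.56, 1.17 and 0.427 in Ci. In the libraries labelled chinmo RNAi, which carry UAS-dcr2, the pair stood at 5.35 ± 3.28 and 5.84 ± 3.44 CPM, within 1 SD of the WT mean for each (9.58 ± 5.81 and 7.62 ± 2.63).

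A pair of members carry names of their own in the annotation. CR31451 is lncRNA:mimi, at 6.16, 2.79 and 4.27 CPM in WT and 14.1, 19.3 and 33.0 under the chinmo RNAi label (adjusted p = 0.12). CR45751 is lncRNA:TS16, which had 3 counts in Upd and 2 in the libraries labelled chinmo RNAi, against 5.13, 0.398 and 27.1 CPM in WT. Its call in Upd (adjusted p = 0.038) was lost without Upd 1, Upd 2, Upd 3 or WT 3.

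The libraries labelled chinmo RNAi had 26 members lower than WT and 2 higher, where 5.38% of all genes tested were lower and 1.38% higher. The members' median log2 change was -0.85 (-0.82 with the limits), against -0.06 over all genes. The groups did not overlap for 70 members lower and 22 higher than WT, where 20.8% and 15.3% of all genes did not. These counts rested on single libraries: the number lower was 4 without the first library of the group, 3 without the second, 6 without WT 2 and 7 without WT 3, and 3 of the 26 were called in every such fit. The number higher was 1 without the first or second library or without any WT library. Over all genes 541 were lower in the main fit. That number was 47 without the first library, 29 without the second, 93 without WT 2 and 149 without WT 3. Genes higher went from 139 to 26 and 6 without the first and second library. They went to 34, 21 and 18 without WT 1, WT 2 and WT 3.

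CR44020, an antisense RNA opposite osk, whose RNA is localised to the posterior pole of the fly oocyte, rose from 0, 0 and 1.42 CPM in WT to 64.1, 106 and 61.4 (adjusted p = 0.0064), and was called in every fit that left out 1 library of either group. It had 3 counts in WT, so its fold is not given. Levels were 9.17, 9.22 and 3.32 CPM in Chinmo and 4.90, 2.57 and 10.7 in Ci, and no read was counted in Upd. The osk transcript was itself at 46.8, 29.6 and 41.8 CPM in these libraries against 2.57, 6.76 and 0 in WT (adjusted p = 0.083), and the 2 strands cannot be told apart. CR44977, opposite brat, rose to 36.6, 24.4 and 13.9 CPM (4.05 ± 1.12, adjusted p = 0.035), a call lost without the first or second library or without any WT library, and its log2 change was 3.45 without WT 2.

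Of the members that were lower, CR32582, CR43152 and CR45030 had no count in the libraries labelled chinmo RNAi. Against a limit of 3 counts over the group, or 0.594 CPM, CR32582 was at least 51.4-fold lower (WT 21.6, 26.3 and 43.7 CPM, adjusted p = 0.0077), CR43152 at least 30.5-fold (adjusted p = 0.0092) and CR45030 at least 24.1-fold (adjusted p = 0.016). CR32582 and CR43152 together with CR43803 were the 3 called in every fit that left out 1 library, and CR45030 was lost without the first or second library labelled chinmo RNAi. Without the third library of that group each of these folds was smaller by 1.62 times, the limit resting on fewer reads. CR32582 was at 8.79, 9.47 and 14.3 CPM in Upd, below WT but not called (adjusted p = 0.24). CR33318 (adjusted p = 0.0091) and CR46131 (adjusted p = 0.030) were also lower, with 2 counts and 1 count in the group. CR33318 was lost without the first or second library and CR46131 without any of the 3 or without WT 2 or WT 3, its WT counts coming mostly from WT 2 (41.4 CPM against 2.05 and 14.2).

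CR44322 had 79.0% of its summed group means in the libraries labelled chinmo RNAi and CR44020 had 84.9%, and reads of that group weighed most in their entry to the list. CR44322 was at 34.6, 61.0 and 33.5 CPM against 3.08, 9.95 and 9.02 in WT, with no overlap and no call (2.54 ± 0.98, adjusted p = 0.12). In Upd it had no count and was at least 21.0-fold lower than WT (adjusted p = 0.00087). Upd and the libraries labelled chinmo RNAi were set against the same 3 WT libraries, so their values are given side by side only.

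In Chinmo 6 members were lower than WT and 1 was higher, where 1.05% of all genes tested were lower and 1.75% higher. The members' median log2 change was -1.45 (-1.37 with the limits), against -0.32 over all genes, and Chinmo lay wholly below WT for 85 members and wholly above for 6, where 20.7% and 7.93% of all genes did so. Under upper quartile scaling 10 were lower and 5 higher, with the median of all genes at -0.18. Of all genes, 182 were lower and 480 higher under that scaling, against 106 and 176 in the main fit. No call held in every fit that left out 1 library. The number lower was 10 without Chinmo 1, 12 without Chinmo 2, 1 without Chinmo 3 and 0 without any WT library. The number higher was 4, 5, 0 and 0. Over all genes these fits gave 131, 403, 53 and 0 lower, and 421, 484, 27 and 0 higher.

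CR45620, an antisense RNA opposite sws, a lysophospholipase gene needed in neurons, had no count in Chinmo and was at 29.8, 11.5 and 6.65 CPM in WT. It was at least 17.7-fold lower against a limit of 0.904 CPM (adjusted p = 0.031, lost without any WT library), or at least 10.1-fold without WT 1. CR45030 was at least 15.8-fold lower (adjusted p = 0.039) and CR43849 at least 13.5-fold (adjusted p = 0.049), the former lost without Chinmo 3 or any WT library and the latter without any library of either group. All 3 folds were smaller by 1.57 times without Chinmo 1 and by 1.84 times without Chinmo 2, the limit resting on fewer reads. CR43152 had 1 count and CR44302 had 2 in Chinmo (adjusted p = 0.037 and 0.048), calls lost without Chinmo 3 or any WT library, and for CR44302 also without Chinmo 1. CR44370, the antisense RNA across Fs, fell from 52.9, 175 and 152 to 15.8, 9.88 and 1.66 CPM (-3.72 ± 0.87, adjusted p = 0.037, lost without Chinmo 3 or any WT library).

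The member called higher in Chinmo was CR45600, an antisense RNA across CG3984 and CG3987 that shares exon with CG6912 on its own strand and had no count in WT. It was at 8.34 and 9.88 CPM in Chinmo 1 and Chinmo 2 and at 322 in Chinmo 3, which held 73.8% of all its counts. The call (adjusted p = 0.022) was lost without Chinmo 3 or any WT library. CR46041, within an intron of cdi, went further, with 862 CPM in Chinmo 3, 93.9% of its counts, and 0 in the other Chinmo libraries, and was the member that the filter on low counts left untested. CR43942, whose lowest Chinmo library stood high against the other groups, was at 18.3, 23.7 and 19.9 CPM in Chinmo against 5.65, 10.3 and 21.8 in WT, which overlap.

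Ci, the transcription factor of the Hedgehog pathway, moved no member past the threshold, where 0.00994% of all genes were called higher and 0% lower. At an unadjusted p below 0.05 edgeR gave 5 members higher and 2 lower, DESeq2 5 and 4 and limma-voom 10 and 5, and none passed after adjustment by any of them. Over all genes the unadjusted counts were 128 higher and 125 lower by edgeR, 263 and 167 by DESeq2, and 196 and 252 by limma-voom. The median log2 change was 0.11, against 0.01 over all genes. Ci lay wholly above WT for 17 members and wholly below for 12, where 6.35% and 5.8% of all genes did so. CR43278 of the X chromosome was at 67.7, 78.8 and 78.1 CPM in Ci against 32.8, 49.7 and 27.1 in WT, and CR45653 at 23.6, 24.1 and 41.0 against 11.8, 17.1 and 10.4, with no overlap in either and no call. Their levels in Upd were 2.96 ± 2.73 and 0.117 ± 0.202 CPM. CR43247, one of the members that stood highest in WT, had 11.3, 26.7 and 22.8 CPM in WT and 5.34, 3.27 and 11.9 in Ci, which overlap.

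Against Ci, a group of the same age and driver, Upd had 95 members lower and 13 higher, where 23.5% of all genes were lower and 5.78% higher. The median log2 change was -2.99 (-2.94 with the limits), against 0.01 over all genes. The 3 Upd libraries lay wholly below Ci for 118 members and wholly above for 37, where 33.2% and 31.5% of all genes did so. Of the called members, 92 were lower and 11 higher than WT as well, counts that share the Upd libraries. CR9284 fell by 6.76 ± 0.61 (adjusted p = 2.7e-08), and without Upd 1 its log2 change was -7.81. The number higher was 7 without Ci 3, where over all genes it went from 581 to 226. The 2 members higher against Ci and not against WT were CR32207, the hairpin RNA (3.87 ± 1.13, adjusted p = 0.011, lost without Ci 2 or Ci 3, and 4.83 without Ci 1), and CR46006 with mir-276a (4.17 ± 1.34, adjusted p = 0.021, lost without Ci 1, Ci 3 or any Upd library, and 8.45 without Ci 2). CR43334 with mir-ban was at 2.22 ± 0.74 (adjusted p = 0.025), lost without Ci 2, Ci 3, Upd 1 or Upd 3. CR44020 was at 4.90, 2.57 and 10.7 CPM in Ci and had no count in Upd (adjusted p = 0.0015).

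A test of any difference among the 5 groups called 137 of the 199 members, where 46.9% of all genes were called. By group mean, 96 members were lowest in Upd and 54 in Chinmo, and 60 were highest in Ci, 45 in WT and 44 in Upd. Shares over all genes were not computed for these counts. Ci 2, the library with the most counts in genes, held the most counts of 82 members, and raw counts chose the members. Of the members 18 had no count in Chinmo, 11 in the libraries labelled chinmo RNAi, and 1 each in WT and Ci. More than 50% of all reads came from a single library for CR46041, CR45600, CR44081 and CR46131.

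Noncoding RNAs with names of their own gave a comparison outside the CR series. Of 31 listed, 27 were in the table and 19 were tested, and in Upd 6 were higher and 1 lower, where 9.22% and 25.3% of all genes tested were. The 6 were acal, which acts on JNK signalling, the snoRNA hosts Uhg4 and Uhg5, snRNA:7SK, the piRNA cluster transcript flam and the retroposed gene sphinx, and the lower one was MRE16. snRNA:7SK was at 47.2, 58.1 and 45.1 CPM in WT and 338, 251 and 176 in Upd (2.35, adjusted p = 0.019), and flam at 17.5, 1.59 and 7.12 against 80.3, 41.7 and 52.1 (2.74, adjusted p = 0.039). Whether the reads of snRNA:7SK came from polyadenylated RNA was not tested, so its values may not measure its level. roX1, which acts on the male X chromosome, was at 398, 319 and 269 in WT, 1218, 740 and 912 in Upd (adjusted p = 0.11) and 142, 13.8 and 1.66 in Chinmo. None of the 19 passed in the comparisons of Chinmo, Ci or chinmo RNAi with WT.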

How the data were processed

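Polyadenylated RNA of sorted testis cells was measured in 15 libraries. Per the submitters' processing notes, bcl2fastq, STAR, Picard, HTSeq and DESeq2 were used with builds dm6 and BDGP6; their versions and the strand setting are not given there. The authors deposited whole-number read counts per gene, which are the unit used here; reads without a gene (7.01% to 17.0%) or ambiguous between genes (13.5% to 26.8%) stayed out of library sizes and tests. The members, marker lists and named-gene rule were chosen with earlier results of these data known. Members were matched to Ensembl BDGP6.54 by symbol (194) or synonym (6). The named members are the 12 most counted, up to 6 called in each direction per comparison with WT by size of change (mean of at least 10 CPM in 1 group, no overlap), and for each group the 2 whose lowest library there stood highest over all other libraries; others, chosen after their values were seen, are antisense, intronic, microRNA, pseudogene, hairpin, neighbouring or recoded loci.

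Genes passing edgeR's filterByExpr (10056, with 199 members) were scaled by TMM and fitted together with 1 mean per group by glmQLFit (edgeR 4.0.16, R 4.3.3), with F tests (two-sided), Benjamini-Hochberg adjustment across the genes tested and a threshold of 0.05. The common biological coefficient of variation was 65.3%. Errors are SD of 3 libraries for CPM and SE for log2 changes. The script was tested on simulated data. Labels do not say that libraries came from separate crosses, so p-values may measure technical spread only. Alternatives were RLE and upper quartile scaling, removal of ribosomal RNA rows, other filters, DESeq2 1.42.0, limma-voom (limma 3.58.1), fits of the compared groups alone and left-out libraries; the limits without each library were added after seeing the data.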

Additional observations from a re-analysis of the deposited data

How the results depend on the processing

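Counts of members past the threshold depended on the processing mainly in Chinmo and chinmo RNAi, whose causes were not tested. Members lower in Upd than WT numbered 92 to 105 over the alternatives that kept all groups and 93 with only the 2 groups compared, and members higher 31 with only the 2 groups. Over all genes, the number higher went from 927 of 10056 to 2310 of 9076 with only the 2 groups. In Chinmo, members lower were 10 by upper quartile scaling, 16 without a filter, 50 by DESeq2, 28 by limma-voom and 0 with only the 2 groups, and members higher 5, 6, 2, 2 and 0. Over all genes, 106 were lower in the main fit, and 182, 392, 1187, 645 and 0 in those alternatives. Genes higher numbered 176 in the main fit, and 480, 422, 393, 197 and 1 in those alternatives. For chinmo RNAi, members lower were 51 by DESeq2 and 49 by limma-voom, and members higher 5 without a filter, 8 by DESeq2, 10 by limma-voom and 7 with only the 2 groups. Over all genes, 541 were lower there in the main fit, 1416 by DESeq2 and 1187 by limma-voom. Genes higher there numbered 139 in the main fit, 209 without a filter, 261 by DESeq2, 399 by limma-voom and 469 with only the 2 groups. Members higher in Upd than Ci were 22 by DESeq2, 20 by limma-voom and 31 with only the 2 groups. Over all genes, 581 were higher than Ci in the main fit, and 1010, 1319 and 1790 in those alternatives. With both Chinmo 3 and Chinmo RNAi 2 left out, an alternative chosen after seeing the data, 14 were lower in Chinmo, 43 lower and 9 higher for chinmo RNAi, 27 higher in Upd than WT and 21 higher in Upd than Ci. The same counts over all 10596 genes tested in that fit were 367, 1155, 442, 1906 and 1295.

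Leaving out 1 library at a time gave 74 to 92 members lower and 9 to 13 higher in Upd, 0 to 12 lower and 0 to 5 higher in Chinmo, 3 to 31 lower and 1 to 2 higher for chinmo RNAi, 73 to 93 lower and 7 to 10 higher in Upd against Ci, and 105 to 151 for any difference. Over all genes these fits gave 2001 to 2424 lower and 442 to 672 higher in Upd. They gave 0 to 403 and 0 to 484 in Chinmo, and 29 to 493 and 6 to 99 for chinmo RNAi. Against Ci they gave 1865 to 2214 and 226 to 348, and for any difference 3731 to 5703. Deviations of libraries with the same number correlated at -0.06 to 0.05, except for Ci and WT at 0.298, 0.105 and -0.02, and in no comparison were all 3 correlations above 0.1, so the numbers were not taken to pair libraries. A replicate block gave 0 members lower in Chinmo, and 14 lower and 1 higher for chinmo RNAi. With the block, all genes gave 0 lower in Chinmo, and 285 lower and 73 higher for chinmo RNAi. Upper quartile scaling moved the median of all genes in Upd against WT from -0.07 to 0.16, and RLE that of Chinmo from -0.32 to -0.61 and of chinmo RNAi from -0.06 to -0.34. No call of a named member changed direction in any alternative. Members with few counts in a group were limited by depth.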
